A study of Mus musculus with 2 samples.

Results

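Lipid droplet proteins were described by 10 genes picked by symbol from the 19465 genes of the probe panel: Plin2, Plin4 and Plin5, Cidea, Cideb and Cidec, Fitm1 and Fitm2, and Hsd17b13 and Hsd17b11. All 10 were on the panel, and 7 of them averaged 10 CPM or more over the libraries, a level that 6933 genes reached. CPM are the UMIs of a gene scaled to a common library total. The other 3, Plin4, Cidec and Cidea, are given by their UMI counts.

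Spatial transcriptomics was performed on formalin-fixed, paraffin-embedded mouse liver with the 10x Visium probe assay. Captured probes are tagged with the position of their spot and counted as unique molecular identifiers (UMIs), which remove PCR copies. There was 1 section of an AEG-1DMAC mouse and 1 of an AEG-1fl/fl mouse, on the same slide. In AEG-1DMAC mice the floxed AEG-1 gene (Mtdh) is deleted by a Cre recombinase driven from Lyz2, which is active in myeloid cells, and AEG-1fl/fl mice carry the floxed gene without that deletion, so both genotypes share the floxed allele. The labels give an age of 27 weeks and HF/HSD (high fat and high sugar diet) feeding from 7 weeks for both animals, whereas the methods describe the sections as coming from littermates on control diet, so the diet of these animals is uncertain.

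With 1 section per genotype there was no replicate, and no p-value was computed. Intervals are exact 95% intervals for counting error, which leave out how far mice and sections vary, so a difference between the sections could not be set against the error of a genotype. A Visium spot can hold several cells of different types, and fewer cells of a type and less RNA per cell cannot be told apart. The AEG-1DMAC library held 45453286 UMIs in 2140 spots (median 20929.5 per spot) and the AEG-1fl/fl library 50322850 UMIs in 2540 spots (median 18285). The hepatocyte gene Alb took 8.80% and 14.2% of all UMIs, so both sections carried the liver label's defining marker. Of the spot barcodes, 1782 occurred in both libraries, which was 82.9% of those of AEG-1DMAC and 70.1% of those of AEG-1fl/fl. The capture areas of a slide use the same barcode list, so a shared barcode is a position and not a shared cell. Mtdh itself stood at 66.3 CPM in AEG-1DMAC and 60.2 CPM in AEG-1fl/fl in these whole-tissue spots, where the cells that carry the deletion are not separated from hepatocytes.

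A lipid droplet is a store of neutral lipid that buds from the endoplasmic reticulum under a single layer of phospholipid, and the proteins on that layer set how lipid enters, leaves and is passed between droplets. In hepatocytes, Plin2 is the standing coat protein, CIDE proteins move lipid between droplets and onto secreted lipoproteins, FIT proteins act in the endoplasmic reticulum where droplets form, and HSD17B13 and HSD17B11 are dehydrogenases that sit on the droplet surface. Hepatocytes also differ along the liver lobule, from the periportal side (zone 1), where blood enters, to the pericentral side (zone 3), where it drains.

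Of the members, Hsd17b13 and Hsd17b11 are neighbours in the genome. Hsd17b13 lies at chr5:103955440-103977410 and Hsd17b11 at chr5:103989762-104021919 (GRCm38, GENCODE annotation), both on the minus strand, with 12351 bases and no annotated protein-coding gene between them. Fitm1 lies at chr14:55575617-55576954 on the plus strand. Their upstream sequences are shown because these are the member that rose most from zone 1 to zone 3, the member that fell most, and the neighbour of the latter. RefSeq (GRCm38.p6) promoter entries were found for 9 of the 10 members, and the stretches printed run 5′ to 3′ on the gene's strand, from 250 bases before the RefSeq start up to the base before the start in the GENCODE annotation. They cover chr14:55575424-55575616, chr5:103977411-103977638 and chr5:104021920-104022046. Capitals mark AGGTCA, the half-site of nuclear receptors such as PPARα, and CTTTGA, the core bound by the TCF/LEF factors of Wnt signalling, each on either strand.
Fitm1: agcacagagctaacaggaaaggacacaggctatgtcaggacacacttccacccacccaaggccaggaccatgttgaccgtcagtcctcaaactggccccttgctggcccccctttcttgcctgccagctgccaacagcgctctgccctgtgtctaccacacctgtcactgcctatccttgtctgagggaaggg
Hsd17b13: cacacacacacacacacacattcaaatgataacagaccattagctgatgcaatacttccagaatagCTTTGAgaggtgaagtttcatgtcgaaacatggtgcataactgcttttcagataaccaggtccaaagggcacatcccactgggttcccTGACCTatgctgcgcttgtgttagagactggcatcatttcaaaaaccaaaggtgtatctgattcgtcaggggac
Hsd17b11: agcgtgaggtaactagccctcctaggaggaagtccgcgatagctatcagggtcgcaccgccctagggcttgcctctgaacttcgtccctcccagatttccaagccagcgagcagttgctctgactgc
Over the full 250 bases before the RefSeq start, Hsd17b13 held 1 AGGTCA match, which begins at -96 and reads TGACCT on the strand shown, and 2 CTTTGA matches, at -184 and at -18, of which the latter falls outside the printed stretch. Fitm1 and Hsd17b11 held 0 matches to either motif. Among 32851 promoter windows of the same length, 14.0% held AGGTCA and 13.8% held CTTTGA, so a match is common and describes letters only.

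Among the perilipins, Plin2 was lower in AEG-1DMAC, at 408 CPM (18554 UMIs, 95% interval 402 to 414) against 547 CPM (27535 UMIs, 541 to 554) in AEG-1fl/fl. The intervals of the sections did not overlap, and the level was 1.34-fold higher in AEG-1fl/fl. The log2 ratio of AEG-1DMAC over AEG-1fl/fl was -0.42 (-0.45 to -0.40). Over the 6933 genes at 10 CPM or more the median log2 ratio was 0.15, and it was 0.0039 when the 50 most abundant genes, Alb among them, were left out of the totals. Relative to that median Plin2 stood at -0.57, at percentile 2.88 of the same genes. Plin5, which tethers droplets to mitochondria in tissues that burn fat, was at 13.0 CPM (593 UMIs, 12.0 to 14.1) in AEG-1DMAC and 10.6 CPM (535 UMIs, 9.75 to 11.6) in AEG-1fl/fl. Its log2 ratio of 0.30 (0.12 to 0.47) lay above 0, and its interval included the median of all genes. With median-of-ratios size factors the ratio was 0.17 and its interval included 0. Plin4, a perilipin best known from adipocytes, gave 49 UMIs and 52 UMIs in whole sections, or 1.08 CPM and 1.03 CPM. With so few UMIs its log2 ratio was 0.06 (-0.53 to 0.65), so a difference was not detectable at this depth.

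Of the CIDE genes, Cideb was the member carried by hepatocytes, where it helps load lipid onto very-low-density lipoprotein. Its level was 446 CPM (20264 UMIs, 440 to 452) in AEG-1DMAC and 440 CPM (22139 UMIs, 434 to 446) in AEG-1fl/fl. The intervals overlapped, the log2 ratio was 0.02 (-0.01 to 0.05), and relative to the median of all genes it was -0.13. With TMM factors the ratio was -0.10 (-0.13 to -0.08). Cidec, which joins droplets into large ones in fat cells and in fatty liver, gave 22 UMIs in AEG-1DMAC and 19 UMIs in AEG-1fl/fl (0.48 CPM and 0.38 CPM). Its log2 ratio of 0.36 spanned -0.59 to 1.32, so no difference could be read. Cidea, known from brown fat, gave 1 UMI in AEG-1DMAC and 0 in AEG-1fl/fl, where the limit that a count of 0 allows, taken as 3 UMIs, was 0.0596 CPM. No fold was computed for it. Adipocyte markers were near 0 in both sections: the 5 genes Adipoq, Lep, Cfd, Retn and Ucp1 summed to 6 UMIs and 9 UMIs, with Lep and Ucp1 at 0 in both.

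The FIT genes were both at moderate counts. Fitm1, which is best known from skeletal and heart muscle, was at 42.2 CPM (1916 UMIs, 40.3 to 44.1) in AEG-1DMAC and 32.6 CPM (1641 UMIs, 31.1 to 34.2) in AEG-1fl/fl. The sections did not overlap in their intervals, and the level was 1.29-fold higher in AEG-1DMAC (log2 ratio 0.37, 0.27 to 0.47). It was the only member whose whole interval lay above the median of all genes, at 0.22 above it. With TMM factors the Fitm1 ratio was smaller, at 0.25 (0.15 to 0.34). The skeletal muscle genes Acta1, Ckm, Myh4 and Tnnt3 together gave 8 UMIs in AEG-1DMAC and 3 UMIs in AEG-1fl/fl, with Acta1 and Myh4 at 0 in both. Fitm2, the broadly used family member that cleaves acyl-CoA at the endoplasmic reticulum, was at 38.7 CPM (1760 UMIs, 36.9 to 40.6) and 35.4 CPM (1782 UMIs, 33.8 to 37.1). Its log2 ratio was 0.13 (0.03 to 0.22), an interval that included the median of all genes, and it went to -0.01 when the 50 most abundant genes were left out of the totals.

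Hsd17b13, a droplet dehydrogenase made mainly in hepatocytes, was lower in AEG-1DMAC, at 427 CPM (19429 UMIs, 421 to 434), than in AEG-1fl/fl, at 595 CPM (29921 UMIs, 588 to 601). The level was 1.39-fold higher in AEG-1fl/fl, with a log2 ratio of -0.48 (-0.50 to -0.45), or -0.62 relative to the median of all genes, at percentile 2.51. Its neighbour and close relative Hsd17b11 was at 200.2 CPM (9101 UMIs, 196 to 204) in AEG-1DMAC and 184 CPM (9256 UMIs, 180.2 to 188) in AEG-1fl/fl. The Hsd17b11 log2 ratio of 0.12 (0.08 to 0.16) was small and included the median of all genes in its interval, and it turned to -0.02 when the 50 most abundant genes were left out of the totals. The longest run of bases shared by annotated transcripts of the pair was 20. Probe sequences were not compared, so binding of a probe to a relative was not tested. Across the families compared, the longest shared run was 28 bases, between Plin2 and Plin5.

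No member reached a 2-fold difference between the sections, a size that 1.79% of all genes tested reached, 1.27% by being higher in AEG-1DMAC and 0.519% by being lower. None reached 1.5-fold either, which 4.3% of all genes did upward and 1.79% downward. With TMM factors, median-of-ratios size factors or totals without the 50 most abundant genes, Hsd17b13 passed 1.5-fold at -0.60, -0.61 and -0.62. The share of all genes past 1.5-fold was not counted under these scalings. The scalings also moved the median of all genes from 0.15 to 0.02, 0.02 and 0.0039. Counting intervals alone, 4 of the 7 members that averaged 10 CPM or more lay above 0 (59.5% of all genes did) and 2 lay below 0 (11.7% did). Against the median of all genes, 1 member lay above (Fitm1, background 28.1%) and 3 lay below (Plin2, Cideb and Hsd17b13, background 28.2%). Over the 8 members that averaged 1 CPM or more the median log2 ratio was 0.09, beside a median of 0.13 over all genes at that level. The members lay on either side of the median of all genes.

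**Figure D1:**
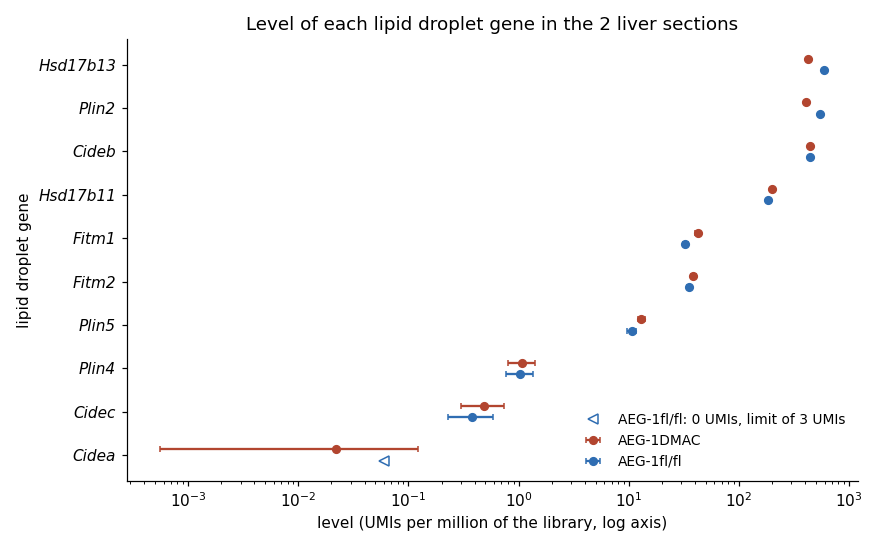
Level of each of the 10 lipid droplet genes (vertical axis) in CPM (horizontal log axis) in the AEG-1DMAC and the AEG-1fl/fl section, with exact Poisson 95% intervals; the open triangle is the level of 3 UMIs, the limit taken for a count of 0. Plin2 and Hsd17b13 lie to the left in AEG-1DMAC, Fitm1 to the right, and Plin4, Cidec and Cidea are at about 1 CPM or under it.

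**Figure D2:**
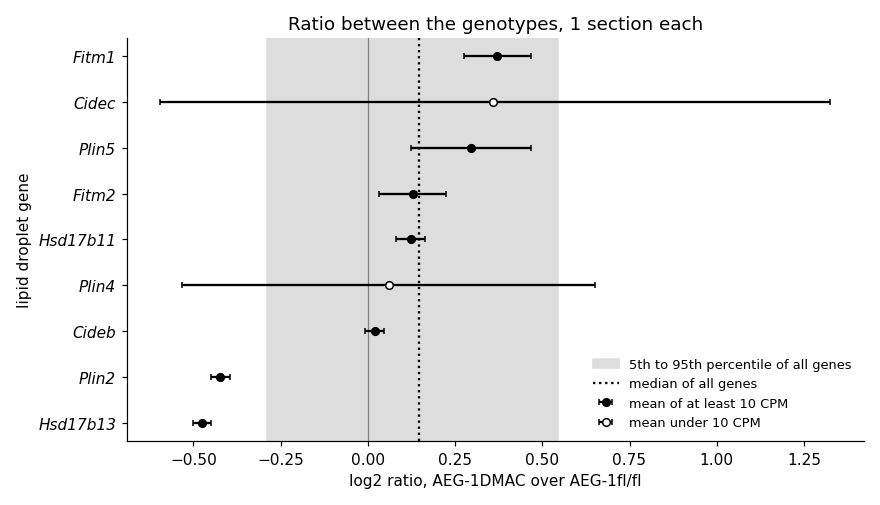
Log2 ratio of AEG-1DMAC over AEG-1fl/fl (horizontal axis) for 9 lipid droplet genes (vertical axis) with 95% intervals for counting error, filled where the mean was at least 10 CPM; the dotted line is the median of all 6933 genes (0.15) and the grey band their 5th to 95th percentile. Hsd17b13 (-0.48) and Plin2 (-0.42) are the members outside the band.

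To ask how the members lie along the lobule, the spots of each section were ranked by a zone index, the mean scaled level of Cyp2e1, Cyp1a2 and Oat (zone 3) minus that of Pck1, Hal, Gls2, Cyp2f2 and Arg1 (zone 1). These are markers that the study used for its zones, without Hsd17b13, which is a member here. Each section was split into 3 equal parts by this index, and the zone ratio is the log2 ratio of the zone 3 part over the zone 1 part in the same library. It compares levels within a library and does not set the sections against each other.

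Fitm1 was the pericentral member. In AEG-1DMAC it rose from 13.6 CPM (206 UMIs) in the zone 1 part through 31.8 CPM (489 UMIs) in the middle to 81.5 CPM (1221 UMIs) in the zone 3 part. In AEG-1fl/fl the same parts gave 10.9 CPM (180 UMIs), 23.5 CPM (410 UMIs) and 64.4 CPM (1051 UMIs). The zone ratios were 2.58 (2.37 to 2.80) in AEG-1DMAC and 2.57 (2.34 to 2.80) in AEG-1fl/fl, near 6-fold in both (5.98-fold and 5.93-fold), and the intervals overlapped almost fully. In 10 bins of the index, Fitm1 stepped up at all 9 steps in each section, from 8.09 to 109 CPM in AEG-1DMAC and from 6.74 to 116 CPM in AEG-1fl/fl. The rise was 13.5-fold and 17.1-fold between the outer bins, which the 3 parts average out.

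Hsd17b13 ran the other way and did so more steeply in AEG-1DMAC. In that section it fell from 655 CPM (9902 UMIs) in the zone 1 part to 419 CPM (6431 UMIs) in the middle and 207 CPM (3096 UMIs) in the zone 3 part. In AEG-1fl/fl it was at 773 CPM (12809 UMIs), 629 CPM (10984 UMIs) and 376 CPM (6128 UMIs). The zone ratio was -1.67 (-1.72 to -1.61) in AEG-1DMAC, 3.17-fold higher in zone 1, and -1.04 (-1.09 to -0.998) in AEG-1fl/fl, 2.06-fold higher in zone 1. The intervals did not overlap, and the zone ratios differed by -0.62. With 8 other ways of building the index, choosing spots or setting the totals, that difference ran from -0.90 to -0.60. Over 10 bins Hsd17b13 fell at all 9 steps in AEG-1DMAC, from 721 to 130 CPM (5.55-fold). In AEG-1fl/fl it peaked in bin 2 at 787 CPM and reached its lowest level, 261 CPM, in bin 10 (3.01-fold). The 2-fold mark was passed narrowly in AEG-1fl/fl, where 4 of the alternatives gave ratios between -0.999 and -0.96 and thus under 2-fold.

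Other zone 1 genes were also steeper in AEG-1DMAC: the median zone ratio of 8 landmark genes outside the index was -1.54 in AEG-1DMAC and -1.11 in AEG-1fl/fl. For 6 zone 3 landmark genes the medians were 2.30 and 2.40. The part these general gradients have in the Hsd17b13 value was not tested.

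The paired levels of Hsd17b13 and Fitm1 turned over along the index. In AEG-1DMAC there were 89.1 Hsd17b13 UMIs per Fitm1 UMI in the most periportal bin (3209 and 36 UMIs) and 1.19 in the most pericentral bin (577 and 484 UMIs). In AEG-1fl/fl the quotient went from 115 (3802 and 33 UMIs) to 2.26 (1104 and 488 UMIs). Because probes differ between genes, the quotient itself is not a ratio of transcripts, and only its change along the index can be read.

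**Figure D3:**
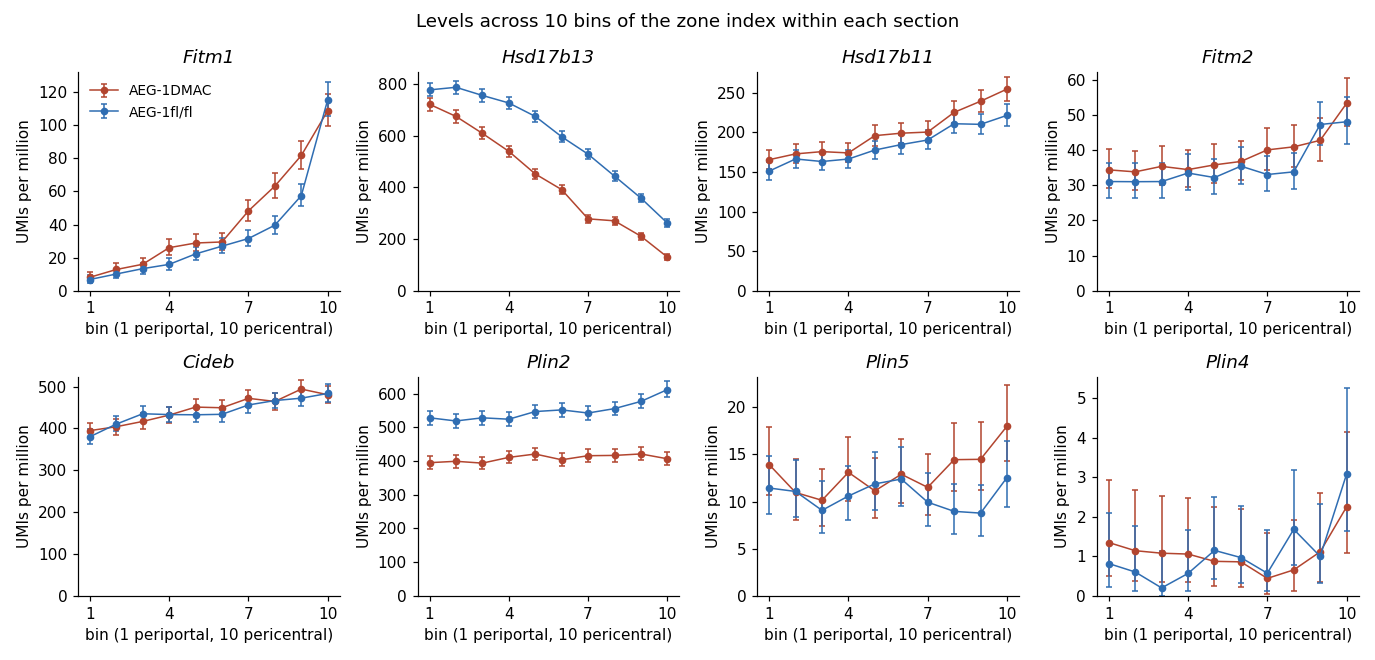
Levels in CPM (vertical axes, from 0) of 8 lipid droplet genes across 10 equal bins of the zone index (horizontal axes, 1 periportal to 10 pericentral) in AEG-1DMAC and AEG-1fl/fl, with exact Poisson 95% intervals. Fitm1 climbs at each step in both sections, Hsd17b13 falls from 721 to 130 in AEG-1DMAC, and Plin2 stays within 1.07-fold and 1.18-fold over the bins.

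**Figure D4:**
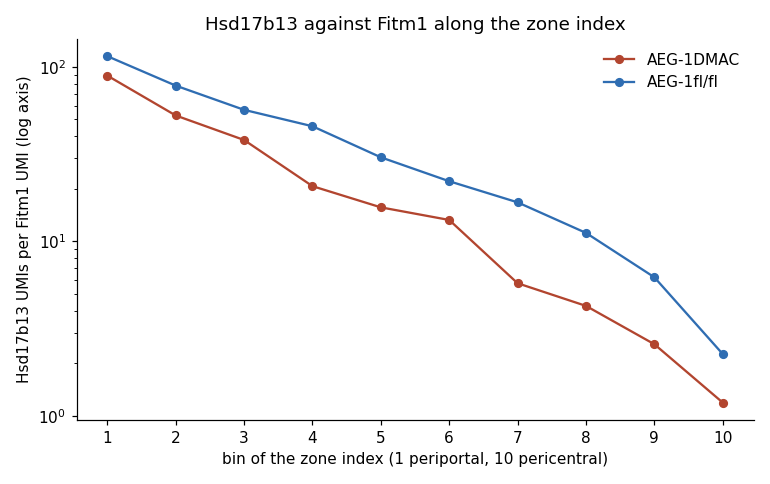
Hsd17b13 UMIs per Fitm1 UMI (vertical log axis) in 10 bins of the zone index (horizontal axis, 1 periportal to 10 pericentral), with a line for each section. The quotient drops from 89.1 to 1.19 in AEG-1DMAC and from 115 to 2.26 in AEG-1fl/fl.

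Of the other members that averaged 10 CPM or more, none reached 2-fold along the lobule in either section. Hsd17b11 went opposite to its neighbour Hsd17b13, from 173 CPM in the zone 1 part to 236 CPM in the zone 3 part of AEG-1DMAC and from 160 to 212 CPM in AEG-1fl/fl. Its zone ratios were 0.45 (0.37 to 0.52) and 0.40 (0.33 to 0.47). Fitm2 had the same direction as Fitm1 at a much smaller size, with zone ratios of 0.42 (0.25 to 0.59) in AEG-1DMAC and 0.43 (0.27 to 0.60) in AEG-1fl/fl. The paralogs of each pair therefore differed along the lobule by more than their counting intervals in both sections. Cideb rose slightly toward zone 3, by 0.22 (0.17 to 0.27) and 0.20 (0.15 to 0.24). Plin2 was close to flat, at 0.07 (0.02 to 0.12) in AEG-1DMAC and 0.13 (0.08 to 0.17) in AEG-1fl/fl. The median zone ratio of all genes was 0.08 and 0.07, so the Plin2 gradient was near that of an ordinary gene on the panel, and in AEG-1DMAC it turned to -0.04 when the 50 most abundant genes were left out of the part totals. Plin5 had zone ratios of 0.35 (0.06 to 0.64) and -0.09 (-0.40 to 0.23). Plin4 rested on 18 UMIs in zone 1 and 20 UMIs in zone 3 in AEG-1DMAC and on 8 and 27 UMIs in AEG-1fl/fl, with zone ratios of 0.16 (-0.83 to 1.17) and 1.78 (0.60 to 3.13), the latter 3.43-fold higher in zone 3 from few UMIs. Cidec had 6 and 7 UMIs in these parts of AEG-1DMAC and 6 and 8 UMIs in AEG-1fl/fl, too few for a gradient to be detectable.

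In each section 1 member, Fitm1, was at least 2-fold higher in zone 3, where 1.09% of all genes tested were in AEG-1DMAC and 1% in AEG-1fl/fl. In each section 1 member, Hsd17b13, was at least 2-fold higher in zone 1, where the background was 0.751% and 0.428%. By intervals alone, 6 of the 7 members tested lay above 0 in AEG-1DMAC and 5 in AEG-1fl/fl (background 30.3% and 28.2%), and 1 lay below 0 in each (10.2% and 9.31%). The directions of Fitm1 and Hsd17b13 were known when the set was chosen, so these counts are a description.

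The genotype ratio of each member was then taken within each part of the zone index. Spots were ranked within their own section, so the same part may cover different positions of the lobule in each section. Whether such a shift has a part in these ratios was not tested. Plin2 was lower in AEG-1DMAC by a like amount throughout, with log2 ratios of -0.41 (-0.46 to -0.37) in the zone 1 part, -0.38 (-0.43 to -0.34) in the middle and -0.47 (-0.52 to -0.42) in the zone 3 part. Hsd17b13 was not uniform. Its ratio went from -0.24 (-0.28 to -0.20) in zone 1 through -0.59 (-0.63 to -0.54) to -0.86 (-0.93 to -0.80) in zone 3, and none of these intervals overlapped. As a ratio, the Hsd17b13 difference was thus greatest on the side where the gene was at its lowest level. Plin2 and Hsd17b13, with nearly the same ratio over whole sections, therefore had different patterns across the lobule. For each member, the change of this ratio from the zone 1 to the zone 3 part equals the difference between its zone ratios in the sections. It is the same observation in another form and not a further one.

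Fitm1 was higher in AEG-1DMAC in every part, by 0.33 (0.03 to 0.62), 0.44 (0.25 to 0.63) and 0.34 (0.22 to 0.46). Zone 3 genes as a group were also higher in that section: all 6 zone 3 landmark genes used were, with a median of 0.74, and Cyp2e1 stood at 7264 CPM against 2841 CPM. The 8 zone 1 landmark genes had a median of -0.14, with 3 higher. How far the Fitm1 difference is shared with these genes was not tested. Hsd17b11 was within 0.10 to 0.15 in all parts, close to the part medians of all genes (0.13, 0.16 and 0.15). Fitm2 was at 0.14, 0.11 and 0.13, and each of these intervals included 0. Plin5 was at 0.15 (-0.16 to 0.45) and 0.13 (-0.17 to 0.43) in the zone 1 and middle parts and at 0.58 (0.29 to 0.88) in the zone 3 part, where it had 230 UMIs in AEG-1DMAC and 167 UMIs in AEG-1fl/fl. The Plin5 intervals of the zones overlapped. Cideb was at -0.01, 0.05 and 0.02.

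**Figure D5:**
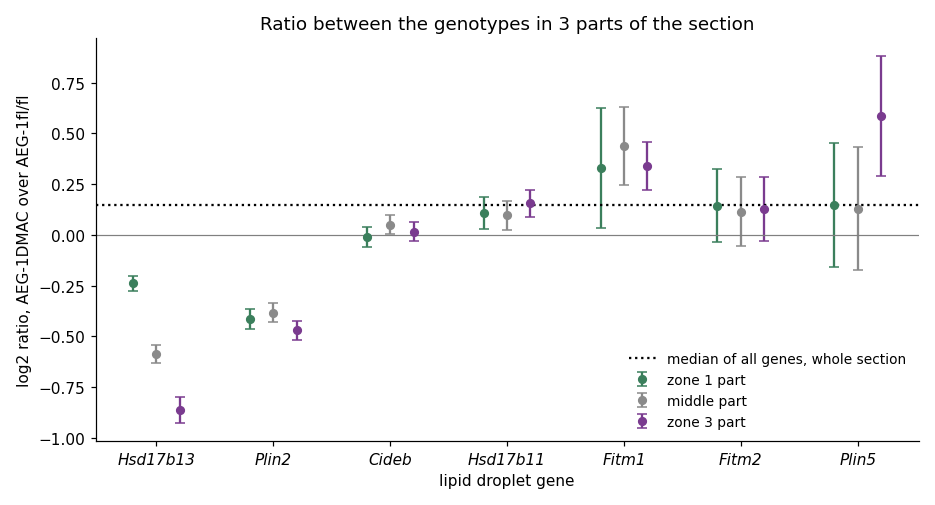
Log2 ratio of AEG-1DMAC over AEG-1fl/fl (vertical axis) for the 7 lipid droplet genes that averaged 10 CPM or more (horizontal axis) in the zone 1, middle and zone 3 parts, with 95% intervals for counting error; the dotted line is the median of all genes over whole sections. Hsd17b13 steps from -0.24 to -0.86, while Plin2 stays between -0.38 and -0.47.

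Single spots were examined next. Each spot was thinned to 10000 UMIs so that depth did not set the counts, which kept 2114 spots of AEG-1DMAC and 2434 of AEG-1fl/fl and left out 26 and 106 shallower ones. Plin2 was then seen in 98.2% of spots in AEG-1DMAC and 99.5% in AEG-1fl/fl (99.6% and 99.8% unthinned), and a median spot held 4 and 5 Plin2 UMIs. Hsd17b13 was seen in 92.6% (91.4 to 93.7, exact binomial 95% interval) and 98.4% (97.9 to 98.9) of spots, or 97.0% and 99.1% unthinned. Fitm1 was seen in 30.1% (28.1 to 32.1) and 24.1% (22.4 to 25.9) of spots, or 48.2% and 40.4% unthinned. Plin4 was seen in 0.80% and 1.07% of spots and Cidec in 0.43% and 0.37%. Of 10 genes of other organs, Gfap, which astrocytes and some stellate cells make, gave 18 UMIs and 26 UMIs in a section, and no other gave more than 2 UMIs in AEG-1DMAC or 4 UMIs in AEG-1fl/fl.

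Spread between spots separated the zoned members from the others. The variance of thinned UMIs over their mean, which is 1 for counting noise alone, was 2.08 and 1.72 for Hsd17b13 in AEG-1DMAC and AEG-1fl/fl and 1.38 and 1.36 for Fitm1. Within bins of the zone index it dropped to 1.17 and 1.20 for Hsd17b13 and to 1.15 and 1.07 for Fitm1. For Plin2 it was 1.08 and 1.02 and for Cideb 0.97 and 1.02, so spots differed in these genes by little more than counting noise. In the spots richest in Plin2 within their bins, 210 in AEG-1DMAC and 250 in AEG-1fl/fl, Plin2 itself was at 696 and 874 CPM against 380 and 515 CPM elsewhere, values that chose the spots. Fitm1 in those spots was at 40.9 CPM against 42.3 CPM elsewhere in AEG-1DMAC and at 33.0 against 32.6 CPM in AEG-1fl/fl, with overlapping intervals. Hsd17b13 was at 447 against 426 CPM (log2 ratio 0.07, 0.0004 to 0.14) and at 594 against 595 CPM (-0.0003, -0.06 to 0.06). Since Plin2 varied by little more than counting noise, that noise can largely choose these spots. A lack of difference in other genes there therefore cannot be read.

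The genes whose levels across spots were most like each member were ranked by the lower of the Pearson correlations in the 2 sections, across 2140 and 2540 spots of log-normalised values that share library and depth. For Fitm1 these were Oat (0.51 in AEG-1DMAC and 0.49 in AEG-1fl/fl), Cyp2e1 (0.45 and 0.48) and Cyp1a2 (0.46 and 0.44), which are the zone 3 genes of the index. For Hsd17b13 they were Cyp2f2 (0.79 and 0.69), a zone 1 gene of the index, Hpx (0.63 and 0.65) and Alb (0.80 and 0.56). Fitm1 and Hsd17b13 themselves correlated at -0.37 and -0.38, and at 0.04 and -0.05 after the bins of the index were taken out. For the other members the best correlations were weak: up to 0.28 for Hsd17b11 (Cyp2e1, Rgn and Pon1), 0.26 for Cideb (Apoa2, Mup11 and Cyp2e1), 0.21 for Plin2 (Acaa2, Rbp4 and Lifr), 0.13 for Fitm2 (Car3, Aldh2 and Mgst1) and 0.07 for Plin5 (Phyh, Aqp9 and Hnrnpm). At these counts such values are given only as a ranking. Mup11 has near-identical relatives in the genome, so its value is uncertain.

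Markers of other liver cells were set beside the members. In the 10% of spots richest in stellate, Kupffer, cholangiocyte, endothelial or smooth muscle genes within their zone bins, Plin2 differed from the remaining spots by log2 values between -0.04 and 0.05, with intervals that included 0. Hsd17b13 was higher in cholangiocyte-rich spots, by 0.15 (0.08 to 0.22) in AEG-1DMAC and 0.21 (0.16 to 0.26) in AEG-1fl/fl, at 470 against 423 CPM and 677 against 585 CPM. It was also higher in smooth muscle-rich spots, by 0.11 (0.04 to 0.17) and 0.07 (0.01 to 0.12), and in Kupffer-rich spots of AEG-1fl/fl by 0.13 (0.08 to 0.19), where AEG-1DMAC gave 0.0026 (-0.07 to 0.07). Bile ducts lie in the portal tract, and whether position within a bin has a part in these values was not tested. Cideb, Fitm1, Fitm2 and Hsd17b11 also had some intervals clear of 0, but for no marker set in both sections. In AEG-1fl/fl, Fitm1 was at -0.28 (-0.53 to -0.03) in cholangiocyte-rich spots and Fitm2 at -0.40 (-0.67 to -0.14) in smooth muscle-rich spots. Cideb and Hsd17b11 went up with some marker sets and down with others. Summed over whole sections, the 4 Kupffer cell genes stood at 541 and 522 CPM, the 4 stellate genes at 392 and 393 CPM and the 4 endothelial genes at 322 and 321 CPM. The 4 cholangiocyte genes summed to 73.5 and 62.3 CPM and the 4 smooth muscle genes to 27.4 and 25.6 CPM. Single markers within these sums were not all alike: Marco, of Kupffer cells, was at 13.9 CPM in AEG-1DMAC and 36.1 CPM in AEG-1fl/fl (log2 ratio -1.38, -1.51 to -1.24), and Colec11, of stellate cells, at 51.8 and 72.1 CPM (-0.48, -0.55 to -0.40).

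Of 26 further genes of droplet coats, lipases, synthesis and assembly, 25 were on the panel and 19 had a mean of at least 10 CPM. Of these 19, 12 lay above 0 between the sections and 5 lay below 0 (background 59.5% and 11.7%), with a median log2 ratio of 0.21. The 1 gene past 2-fold was G0s2, the inhibitor of the lipase ATGL, at 25.7 CPM (1166 UMIs) in AEG-1DMAC and 58.5 CPM (2942 UMIs) in AEG-1fl/fl (log2 ratio -1.19, -1.29 to -1.09). Of all genes tested, 1.79% passed 2-fold either way. G0s2 shared the direction of Plin2 and Hsd17b13 and rose toward zone 3 in both sections (0.58 and 0.70). The lipase itself, Pnpla2, was at 69.0 and 58.8 CPM (0.23, 0.16 to 0.30), and its co-activator Abhd5 at 46.4 and 35.1 CPM (0.40, 0.31 to 0.50). Dgat2, which makes triglyceride, was at 592 and 405 CPM (0.55, 0.52 to 0.57). Relative to the median of all genes, Pnpla2 was at 0.08, Abhd5 at 0.26 and Dgat2 at 0.40. Pnpla2, Abhd5 and Dgat2 were picked from the list after their values were seen. The 5 genes that lay below 0 were G0s2, Acsl3 (-0.53), Sqle (-0.28), Nsdhl (-0.18) and Mettl7b (-0.11). Lipe, with a mean under 10 CPM, was at 0.03 (-0.17 to 0.24). Among the 19 genes, Sqle, of sterol synthesis, was the 1 gene past 2-fold along the lobule, and in AEG-1DMAC only. Its zone ratios were -1.01 (-1.17 to -0.84) in AEG-1DMAC and -0.19 (-0.33 to -0.05) in AEG-1fl/fl. Of all genes tested, 0.751% and 0.428% were at least 2-fold higher in zone 1 in these sections. Plin1, the perilipin of fat cells, gave 1 UMI and 0 UMIs.

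The transcription factors known to drive several members were compared last. Pparg, which activates Plin and Cide genes in fat cells and fatty liver, was low, at 9.26 CPM (421 UMIs) and 6.84 CPM (344 UMIs). Its zone ratios of 2.78 (2.29 to 3.31) and 2.19 (1.73 to 2.68) overlapped those of Fitm1. The overlap was not particular to Pparg. Intervals of the zone 3 landmark genes Rhbg (2.37 and 2.52), Axin2 (2.14 and 2.53) and Lect2 (2.32 and 2.29) overlapped those of Fitm1 too. Those of Slc1a2, Cyp2c29 and Gulo did not in AEG-1DMAC. Ppara, the receptor that switches on fat burning, was at 160 and 165 CPM, with a log2 ratio of -0.04 (-0.09 to 0.00) and zone ratios of 0.51 and 0.37. Ppard was lower in AEG-1DMAC, at 5.26 CPM (239 UMIs) against 13.9 CPM (701 UMIs), a log2 ratio of -1.41 (-1.62 to -1.19), although its mean was under 10 CPM. Nr1h3 and Srebf1, which drive lipid synthesis, were at 0.15 and 0.24, Ppargc1a at 0.32 and Creb3l3 at 0.05.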

How the data were processed

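Reads had been processed by the authors in Space Ranger 2.0.1 (mm10 probe reference). The deposited values are raw UMI counts per spot for 19465 genes. The files hold 2149 and 2543 spots, the numbers given in the study after its filter. Keeping spots with at most 50000 UMIs and 100 to 7000 genes, the filter stated, left 2140 and 2540. Counts were summed per library and scaled to CPM, with exact Poisson 95% intervals, and ratios were given exact conditional binomial intervals. No test was run, since each genotype had 1 library. At 10 CPM a gene had 455 and 503 UMIs. Probe binding differs between genes, so a gene's level was compared between libraries and zones and not with that of another gene. The intervals and calls were checked on simulated Poisson counts, the model that the intervals assume. That check does not cover variation between mice or sections. Python 3.11.15, numpy 2.4.6, scipy 1.17.1, pandas 2.3.3 and matplotlib 3.10.9 were used. Genes named are all members, further droplet genes past 2-fold, 7 regulators, Mtdh and the 3 genes most like each member. A few further genes (Pnpla2, Abhd5, Dgat2, Acsl3, Nsdhl, Mettl7b, Lipe, Plin1, Marco, Colec11 and zone 3 landmark genes) were named after their values were seen. So were the genotype levels of Cyp2e1. Members and lists were chosen with earlier results of these data known. Alternatives covered scaling, spot filters, UMI matching (1780 spots per library), minimum levels and the zone index.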

Additional observations from a re-analysis of the deposited data

Results flagged for a closer look

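For 3 genes that averaged 1 CPM or more, the sections or the parts of the lobule pointed in opposite directions with at least 1 interval clear of 0, and none of these differences was tested. The log2 ratio of the zone 3 part over the zone 1 part was 0.35 for Plin5 in AEG-1DMAC and -0.086 in AEG-1fl/fl, and the intervals overlapped. Between the genotypes, Plin4 was at 1.30 in the zone 1 part, -0.44 in the middle and -0.31 in the zone 3 part, from 8 to 27 UMIs per part and section. Cideb was at -0.012 (-0.062 to 0.038), 0.051 (0.0035 to 0.098) and 0.015 (-0.031 to 0.062) in the same parts. For Plin4 and for Cideb the intervals of the parts overlapped. Each Cideb value lay below the median of all genes in its part (0.13, 0.16 and 0.15). Cidec, under 1 CPM, also changed sign (0.13, 1.03 and -0.07), and each of its intervals included 0.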

How the results depend on the processing

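The count of 0 members at least 2-fold apart between genotypes held under all 9 alternatives tried. Not all of them could have changed it. A minimum mean of 50 CPM cannot raise a count of 0, and a ratio of at least 1.5 counts a smaller fold. The member at 10 CPM or more that was furthest from 0 was Hsd17b13, at -0.48 and well short of 2-fold. The median member log2 ratio of 0.09 ran from -0.05 to 0.13 and was below 0 with TMM factors (-0.03), median-of-ratios size factors (-0.04) and without the 50 most abundant genes (-0.05). Plin2, Hsd17b13, Fitm1 and Plin5 kept their direction under all 6 scalings and spot choices, but the Plin5 interval included 0 with median-of-ratios size factors (-0.0055 to 0.34) and without the 50 most abundant genes (-0.018 to 0.32). Relative to totals that are less set by abundant genes, Hsd17b11 turned to -0.0017 with TMM factors, -0.0073 with median-of-ratios size factors and -0.020 without the 50 most abundant genes, and Fitm2 to -0.00089 and -0.013 with the latter pair. Under the same 3 scalings Cideb went from 0.02 to -0.10, -0.11 and -0.12, with intervals below 0, and Plin4 from 0.06 to -0.06, -0.07 and -0.08, with intervals that included 0. The median of all genes moved from 0.15 to 0.02, 0.02 and 0.0039 under these scalings.

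In AEG-1DMAC the Fitm1 zone ratio of 2.58 became 3.75 with the outer 10% of spots at each end. In AEG-1fl/fl it became 4.10 there and 2.26 with zone 1 markers only. For Hsd17b13 the AEG-1DMAC ratio of -1.67 became -1.73 with Hsd17b13 in the index, -1.60 with landmark genes, with zone 1 markers only and with zone 3 markers only, -2.47 with the outer spots and -1.77 without the 50 most abundant genes. The AEG-1fl/fl ratio of -1.04 became -1.11, -0.99 with zone 1 markers, -0.96 with zone 3 markers, -1.57 with the outer spots, -0.99 with spots matched on UMIs and -1.14 without the 50 genes. The count of members at least 2-fold zoned in AEG-1fl/fl fell from 2 to 1 with landmark genes, with zone 1 markers only, with zone 3 markers only and with matched spots, since Hsd17b13 lay near the 2-fold mark, and rose to 3 with a minimum of 1 CPM, which let in Plin4. Plin2 in AEG-1DMAC turned to -0.039 without the 50 genes. The cause of the other shifts was not tested. No paired analysis was possible because each genotype had 1 library and the labels carry no replicate numbers. Depth limits Plin4, Cidec and Cidea, which had at most 52 UMIs in a section.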
